A study of Homo sapiens with 8 samples.

Results

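GPNMB, the 3 MiT/TFE transcription factors MITF, TFEB and TFE3, and 6 genes that control these factors or are known as their targets (FLCN, FNIP1, FNIP2, RRAGD, SQSTM1 and UVRAG) were examined in HepG2 cells that overexpressed GRHL2. These genes were taken by symbol, and 10 of 10 were found among the 17561 genes of the expression table. GPNMB had been picked because it showed one of the largest increases in the same comparison. Its difference and those of the other 9 genes are therefore given here as a description, with no exact p-value for any of them. Counts of how many passed a limma threshold, with the genes named, are set beside the share of all genes. HepG2 is a human liver tumor cell line. The cells were grown with serum, insulin and dexamethasone on gelatin, and RNA was harvested 48 h after transfection with pGRHL2 or with the control plasmid pcDNA3, with 4 libraries per plasmid numbered 1 to 4. The pGRHL2 plasmid encoded flag-tagged GRHL2 under an EEF1A1 promoter and also a green fluorescent protein, so the plasmids differed in more than the GRHL2 insert. Transfection was transient, and the share of cells that took up the plasmid was not measured by these libraries.

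The MiT/TFE proteins are basic helix-loop-helix leucine zipper factors that bind E-box sequences in genes of the lysosome and of autophagy. When nutrients are plentiful, the kinase mTORC1 phosphorylates TFEB and TFE3 at the lysosome surface and holds them in the cytoplasm. The Rag GTPases bring these factors to mTORC1, and folliculin (FLCN) with its partners FNIP1 and FNIP2 switches RagC and RagD to the form that does so. Several of these control genes, RRAGD and FLCN among them, are also transcribed under MiT/TFE control, which closes a feedback loop. GPNMB is a transmembrane glycoprotein that was found in melanoma cells, is abundant in pigment cells, macrophages and osteoclasts, and is a known target of MITF and TFE3.

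Values are on a log2 scale and per transcript length, and the sequencing depth behind them is unknown. Averaging the pGRHL2 and pcDNA3 libraries of 1 number gave the same value for all 4 numbers in every gene, so that the values of a pair mirror each other and only the 4 pair differences vary. Each log2 fold change (log2 FC, pGRHL2 minus pcDNA3) is therefore followed by the SD over the 4 pairs. For the same reason, groups that do not overlap mean only that all 4 pair differences have the same sign. As a check of the labels, GRHL2 itself was higher in every pair, by 9.48 ± 0.57 on the log2 scale (SD, n = 4 pairs). All 8 genes listed as hepatocyte markers were present, with mean levels from 9.83 to 17.11. The highest was AFP, which the study treats as a progenitor gene. The mean difference over these markers stood apart in pair 2, at 0.34, and ranged from -0.10 to 0.02 elsewhere.

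In hg38, GPNMB spans 23235967 to 23275108 of chromosome 7 (plus strand). The promoter window of RefSeq (GRCh38.p14, chr7:23246525-23246824, plus strand, from 250 bases before the RefSeq start to 50 bases after it, inside the span of the GENCODE gene) is shown because it holds 2 copies of the M-box core TCATGTG, the form of E-box through which MITF acts on pigment cell genes. The capitals mark these copies, which read CACATGA on this strand and begin 123 and 62 bases before the start.
GPNMB: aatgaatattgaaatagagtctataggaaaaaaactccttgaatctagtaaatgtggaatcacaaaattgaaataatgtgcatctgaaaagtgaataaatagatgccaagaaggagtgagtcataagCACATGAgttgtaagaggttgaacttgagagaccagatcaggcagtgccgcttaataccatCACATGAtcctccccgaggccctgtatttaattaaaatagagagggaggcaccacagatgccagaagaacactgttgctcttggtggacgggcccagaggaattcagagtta
The stretches of FNIP1 and FNIP2 are shown for comparison, from the only other windows, among the 8 genes with any, that held an E-box of those searched. FNIP1 (window chr5:131796968-131797267, minus strand) has 2 copies of CACGTG, the core of the CLEAR element of lysosomal genes, which begin 175 and 94 bases before its start. FNIP2 (second window, chr4:158805589-158805888, plus strand) has 1 M-box core, which begins 142 bases before its start. Capitals again mark the motif matches.
FNIP1: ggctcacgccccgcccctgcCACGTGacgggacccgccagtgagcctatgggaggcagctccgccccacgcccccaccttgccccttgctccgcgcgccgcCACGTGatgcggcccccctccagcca
FNIP2: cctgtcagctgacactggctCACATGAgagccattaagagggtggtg
RefSeq gave 15 windows of 300 bases for 8 of the 10 genes, RRAGD and UVRAG not being matched. Both strands were searched. Over all 35116 windows of this length, 2.92% held at least 1 M-box core and 0.0968% held 2 or more. For CACGTG these shares were 7.26% and 0.664%. The longer CLEAR letters GTCACGTG, which contain CACGTG, occurred in 2.4% of windows and once in that of FNIP1. The Grainyhead core AACNNGTT occurred in 3.52% of windows and, among the 8 genes with a window, once in the second window of FNIP2. These matches describe the letters only, and binding was not measured here.

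GPNMB was the gene of the 10 with the largest difference. With pGRHL2 its levels were 7.15, 7.20, 7.11 and 7.28 in libraries 1 to 4, and with pcDNA3 they were 6.17, 6.12, 6.21 and 6.04. All 4 pGRHL2 libraries were above all 4 pcDNA3 libraries. The log2 FC was 1.05 ± 0.15 (SD, n = 4 pairs), a 2.07-fold difference, and it ranked 4 of 17561 genes, with GRHL2 at rank 1. The pair differences were 0.97, 1.07, 0.90 and 1.24. Those of GRHL2 itself were 8.97, 9.51, 10.26 and 9.18, and whether the 2 genes vary together over pairs was not tested. Among 1471 genes whose mean level was within 0.5 of that of GPNMB, the median size of the log2 FC was 0.063. None of its exon bases were shared with another gene (0% in GENCODE release 44). In bulk RNA, more cells that express a gene and more RNA per cell cannot be told apart.

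**Figure D1:**
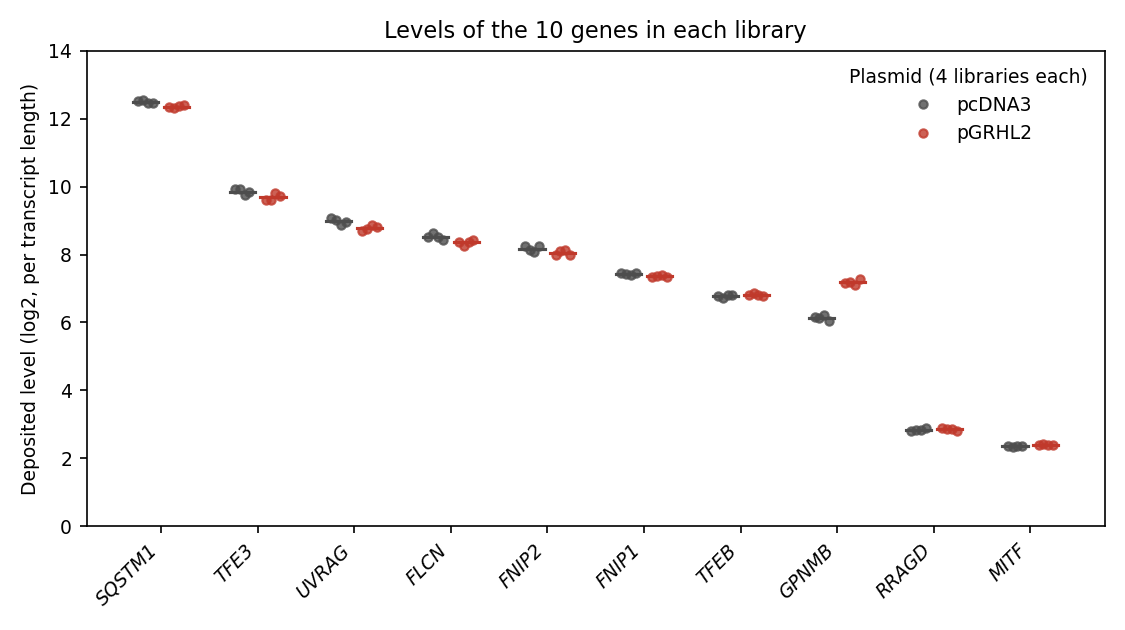
Level of each gene (y axis, deposited log2 value per transcript length) in the 4 pcDNA3 and 4 pGRHL2 libraries, with points for libraries and short lines for group means, and genes (x axis) ordered by their pcDNA3 mean. GPNMB lay at 6.14 with pcDNA3 and 7.18 with pGRHL2, whereas the group means of each other gene lay within 0.20 of each other.

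The levels of the 10 genes in control cells spanned a wide range. On the log2 scale per transcript length, the pcDNA3 means ran from 12.50 ± 0.05 (SD, n = 4) for SQSTM1, at percentile 98.9 of all genes, to 2.35 ± 0.02 for MITF, at percentile 20.3. Between them stood TFE3 (9.85 ± 0.09), UVRAG (8.98 ± 0.08), FLCN (8.52 ± 0.08), FNIP2 (8.17 ± 0.08), FNIP1 (7.44 ± 0.03), TFEB (6.78 ± 0.04), GPNMB (6.14 ± 0.07) and RRAGD (2.83 ± 0.04). TFE3 was thus the MiT/TFE factor with the highest level in these cells, and the melanocyte factor MITF had the lowest level of the 10 genes. No neighbours in this order had overlapping pcDNA3 values, the smallest gap between means being 0.35, from FLCN to FNIP2. With pGRHL2 the order was the same except that GPNMB stood above TFEB, 0.37 higher in mean. GPNMB then lay 0.18 below FNIP1, and 0.05 below it in the library where they were closest. These SDs and the lack of overlap do not hold the spread between replicate numbers, which is absent from the values. The order also depends on the transcript lengths used for scaling.

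Of the 10 genes, 1, GPNMB, passed a limma adjusted p under 0.05, against 2.19% of all genes (1.69% higher and 0.501% lower), and nothing is read from this count because GPNMB was chosen from this comparison. None of the other 9 passed (0 of 9 by limma). An unadjusted limma p under 0.05 was found for 4 of these 9, all lower (TFE3, FLCN, SQSTM1 and UVRAG), against 16.0% of all genes in either direction and 6.78% in the lower direction. Groups did not overlap for 3 of the 10 (GPNMB and MITF higher, SQSTM1 lower), against 24.0% of all genes. The median log2 FC of the 9 was -0.12, compared with 0.0017 over all genes, and 6 of the 9 had a negative log2 FC. The shares and the median of all genes were not matched for level. Among genes with a mean value of at least 5, limma called 63 higher and 81 lower at an adjusted p under 0.05. Over the whole table these counts were 297 and 88. Nothing is therefore read from the counts or the median of the 9 genes. By pair, 6, 6, 2 and 7 of the 9 were lower with pGRHL2 in pairs 1 to 4, and their median differences were -0.14, -0.06, 0.01 and -0.08. Lower values were thus the more frequent in pairs 1, 2 and 4, whereas pair 3 had FLCN and SQSTM1 only.

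Among the transcription factors, MITF (chromosome 3, 69739456 to 69968336) had levels of 2.40, 2.43, 2.39 and 2.38 with pGRHL2 and of 2.35, 2.32, 2.36 and 2.37 with pcDNA3. The groups did not overlap, but the log2 FC was only 0.05 ± 0.04. The smallest of its pair differences was 0.004. The transformation named in the study's methods shrinks values of genes with few reads, but the reads behind the MITF values are unknown. Among 1347 genes within 0.5 of the MITF level, the median size of the log2 FC was 0.020. TFEB (chromosome 6, 41683978 to 41736259), which drives lysosome formation upon starvation, had levels of 6.81, 6.87, 6.80 and 6.77 with pGRHL2 and of 6.79, 6.72, 6.80 and 6.82 with pcDNA3. Its groups overlapped, and the log2 FC of 0.03 ± 0.08 was smaller than the spread between pairs. TFE3 (chromosome X, 49028726 to 49043410), a factor close to TFEB in function, had levels of 9.62, 9.61, 9.80 and 9.71 with pGRHL2 and of 9.92, 9.93, 9.74 and 9.83 with pcDNA3. It was lower with pGRHL2 in pairs 1, 2 and 4 and higher by 0.05 in pair 3, giving a log2 FC of -0.17 ± 0.17.

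The 3 genes of the folliculin complex each had a mean difference below 0. FLCN (chromosome 17, 17212212 to 17237188), the catalytic subunit that acts on the Rag GTPases, had levels of 8.37, 8.26, 8.37 and 8.44 with pGRHL2 and of 8.51, 8.62, 8.51 and 8.44 with pcDNA3. Its log2 FC was -0.16 ± 0.15, with a difference of -0.37 in pair 2 and of 0.0019 in pair 4. FLCN shared 11.86% of its exon bases with another gene, and its reads were counted without strand. FNIP1 (chromosome 5, 131641714 to 131797017) and FNIP2 (chromosome 4, 158769026 to 158908050) encode the alternative partners of FLCN. FNIP1 had levels of 7.34, 7.37, 7.40 and 7.33 with pGRHL2 and of 7.46, 7.43, 7.40 and 7.47 with pcDNA3, a log2 FC of -0.08 ± 0.06. FNIP2 had levels of 7.99, 8.10, 8.14 and 7.98 with pGRHL2 and of 8.24, 8.12, 8.08 and 8.25 with pcDNA3, a log2 FC of -0.12 ± 0.16. Both were lower in 3 of 4 pairs, and pair 3 was again the exception. RRAGD (chromosome 6, 89364616 to 89412273), which encodes RagD, had levels of 2.90, 2.85, 2.86 and 2.80 with pGRHL2 and of 2.79, 2.83, 2.82 and 2.88 with pcDNA3. Its groups overlapped, with a log2 FC of 0.02 ± 0.08, and its low level has the same limit as that of MITF.

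SQSTM1 and UVRAG are autophagy genes on which MiT/TFE factors act. SQSTM1 (chromosome 5, 179806398 to 179838078) encodes p62, the receptor that brings ubiquitinated cargo into autophagosomes. Its levels were 12.33, 12.31, 12.38 and 12.41 with pGRHL2 and 12.52, 12.55, 12.47 and 12.45 with pcDNA3. All 4 pGRHL2 libraries were below all 4 pcDNA3 libraries, with a log2 FC of -0.14 ± 0.09. SQSTM1 shared 22.39% of its exon bases with MGAT4B and MRNIP, so its value may depend on how reads over these bases were counted. UVRAG (chromosome 11, 75815210 to 76144232) encodes a subunit of a lipid kinase complex of autophagosomes and endosomes. Its levels were 8.68, 8.75, 8.88 and 8.81 with pGRHL2 and 9.08, 9.01, 8.88 and 8.95 with pcDNA3, giving a log2 FC of -0.20 ± 0.17. The pair differences of UVRAG were -0.39, -0.26, 0.0035 and -0.15, so that the groups met in pair 3.

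**Figure D2:**
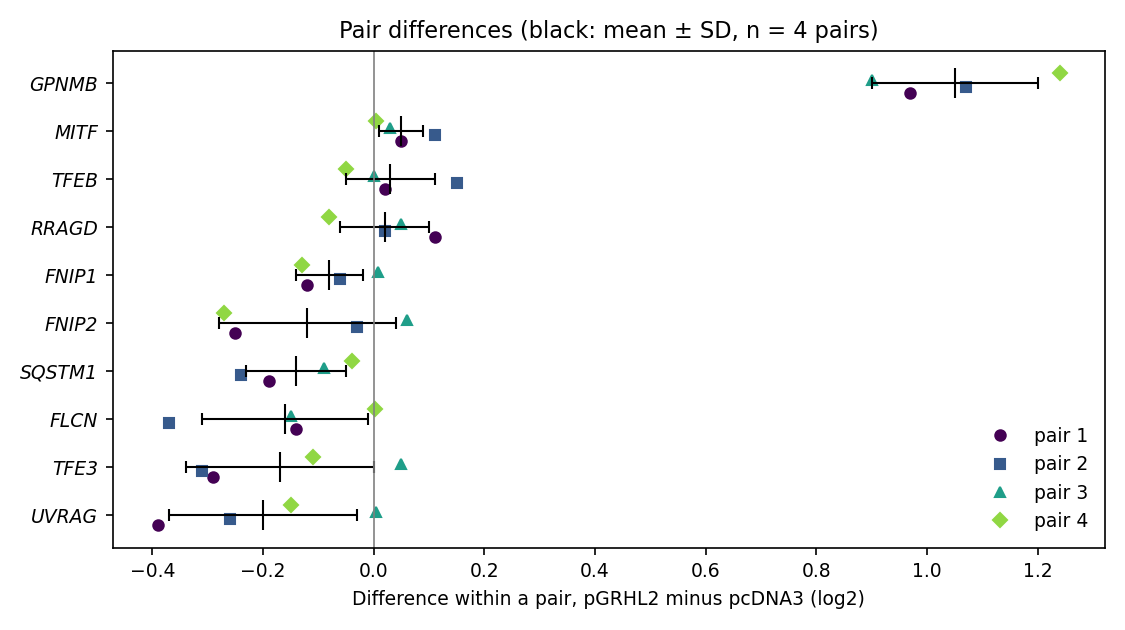
Difference within each of the 4 pairs (x axis, log2, pGRHL2 minus pcDNA3) for each gene (y axis), with symbols for pairs and black bars for the mean ± SD. GPNMB lay between 0.90 and 1.24, whereas the other 9 genes lay between -0.39 and 0.15, and UVRAG, TFE3, FNIP1 and FNIP2 were close to 0 or above it in pair 3.

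**Figure D3:**
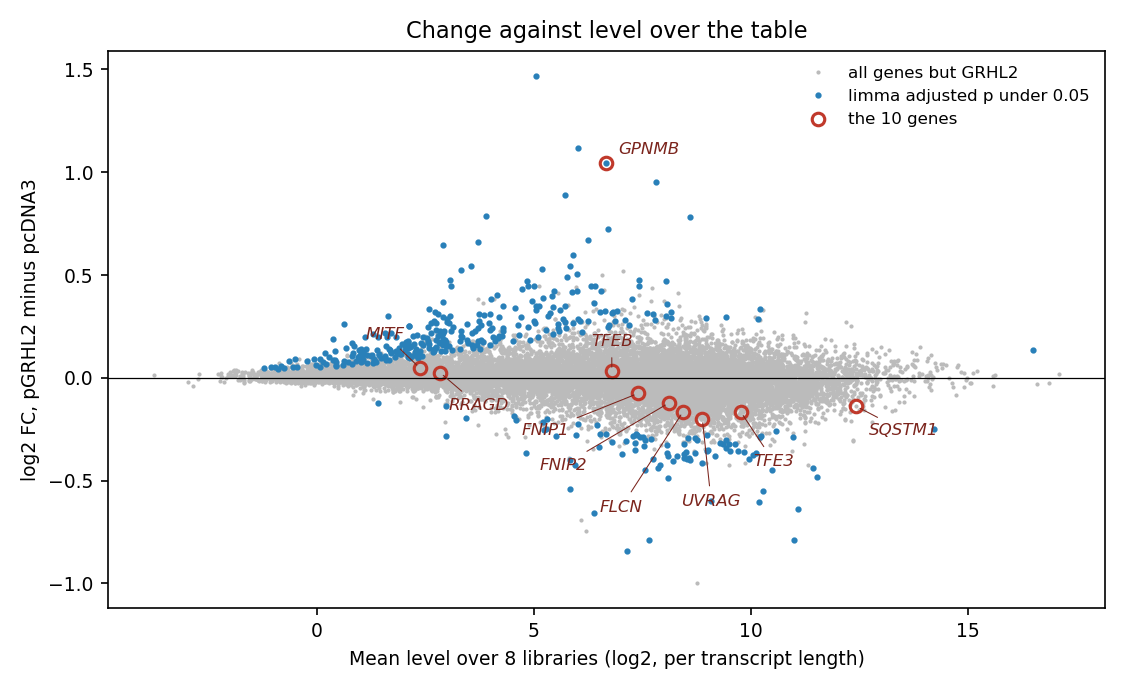
Log2 FC (y axis) against mean level over the 8 libraries (x axis, log2 per transcript length) for each gene except GRHL2, with genes at a limma adjusted p under 0.05 in blue and the 10 genes circled. GPNMB, at a mean level of 6.66, stood at 1.05, which is rank 4 of 17561 genes with GRHL2 counted. ITGA3 (0.95) and EFHD1 (0.89) followed at ranks 5 and 6. The other 9 circled genes lay within -0.20 and 0.05.

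The wider pathway was examined through 6 lists of genes tied to MiT/TFE factors and to GPNMB, which held 86 genes besides the 10, 78 of which were analysed. By limma, 0 genes were higher and 1 gene was lower at an adjusted p under 0.05, which is 1.28% of the 78 against 2.19% of all genes. An unadjusted p under 0.05 was found for 13 of the 78, against 16.0% of all genes, and the median log2 FC was 0.016. These counts cover only the list genes reported here, and genes left out could change them by a call, so nothing is read from the share.

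Lysosome targets were represented by 24 genes, of which 0 passed the limma test and 4 had an unadjusted p under 0.05 (16.0% of all genes), with a median log2 FC of 0.039. The groups did not overlap for 4 of them, all higher, against 13.4% of all genes. TPP1, a lysosomal peptidase, had the largest log2 FC, at 0.23 ± 0.16 (adjusted p = 0.15, limma), and the lowest value was that of ATP6V1H, a subunit of the proton pump that acidifies lysosomes, at -0.11 ± 0.15 (adjusted p = 0.459, limma).

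Of the 8 analysed MITF targets known from pigment cells and osteoclasts, 0 rose, 1 fell and 7 did not pass the test, with a median log2 FC of 0.028. CTSK, which encodes cathepsin K, the main collagen-cleaving protease of osteoclasts, fell. Its levels were 5.21, 5.20, 5.23 and 5.21 with pGRHL2 and 5.42, 5.42, 5.39 and 5.42 with pcDNA3, and the log2 FC was -0.20 ± 0.03 (limma adjusted p of 0.0354), lower in 4 of 4 pairs. The call was lost in each of the 4 fits without 1 replicate (adjusted p from 0.0924 to 0.165) and among genes with a mean value of at least 5 (0.0746). The log2 FC of the other 7 were all above 0. Groups did not overlap for 2 of them, RAB27A and ACP5, both higher, against 13.4% of all genes in that direction. ACP5, an osteoclast phosphatase (0.06 ± 0.03), was named after its values were seen. RAB27A, which moves melanosomes, stood at 0.15 ± 0.16 (adjusted p = 0.349, limma), with differences of only 0.01 and 0.0022 in pairs 2 and 3. OSCAR, an osteoclast receptor, had a level of 0.44 and a log2 FC of 0.00089 ± 0.02 (adjusted p = 0.986, limma), whose sign turned under other settings.

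In the other pathway lists, 0 genes passed as well. Among 22 genes of the folliculin, Rag and mTORC1 machinery, 3 had an unadjusted limma p under 0.05 (16.0% of all genes), and the median log2 FC was -0.014. DEPDC5, part of a complex that restrains Rag signalling, had the largest log2 FC (0.19 ± 0.08; adjusted p = 0.0831, limma), and RRAGC, which encodes RagC, had the lowest (-0.26 ± 0.29; adjusted p = 0.255, limma). The differences of RRAGC were -0.52, -0.39, -0.27 and 0.15 in pairs 1 to 4, and 23.12% of its exon bases were shared with another gene. Among 17 autophagy targets, 3 had an unadjusted limma p under 0.05 and groups did not overlap for 4 in the higher direction (13.4% of all genes) and for 1, VPS11, in the lower (10.5%). GABARAPL1, which encodes a protein of the autophagosome membrane, stood at 0.20 ± 0.16 (adjusted p = 0.213, limma), and VPS11, a subunit of vesicle tethering complexes, at -0.12 ± 0.07 (adjusted p = 0.343, limma). The fourth MiT/TFE factor, TFEC, had a mean level of -1.04 and a log2 FC of 0.02 ± 0.01 (adjusted p = 0.352, limma), with 0 of 1 at an unadjusted limma p under 0.05. Of 7 relatives and partners of GPNMB, 0 passed and 1 had an unadjusted limma p under 0.05. ITGA5, an integrin subunit, stood at 0.12 ± 0.06 (adjusted p = 0.155, limma) and ADAM17, a protease that sheds membrane proteins, at -0.03 ± 0.11 (adjusted p = 0.857, limma), which turned to 0.005 without replicate 2.

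**Figure D4:**
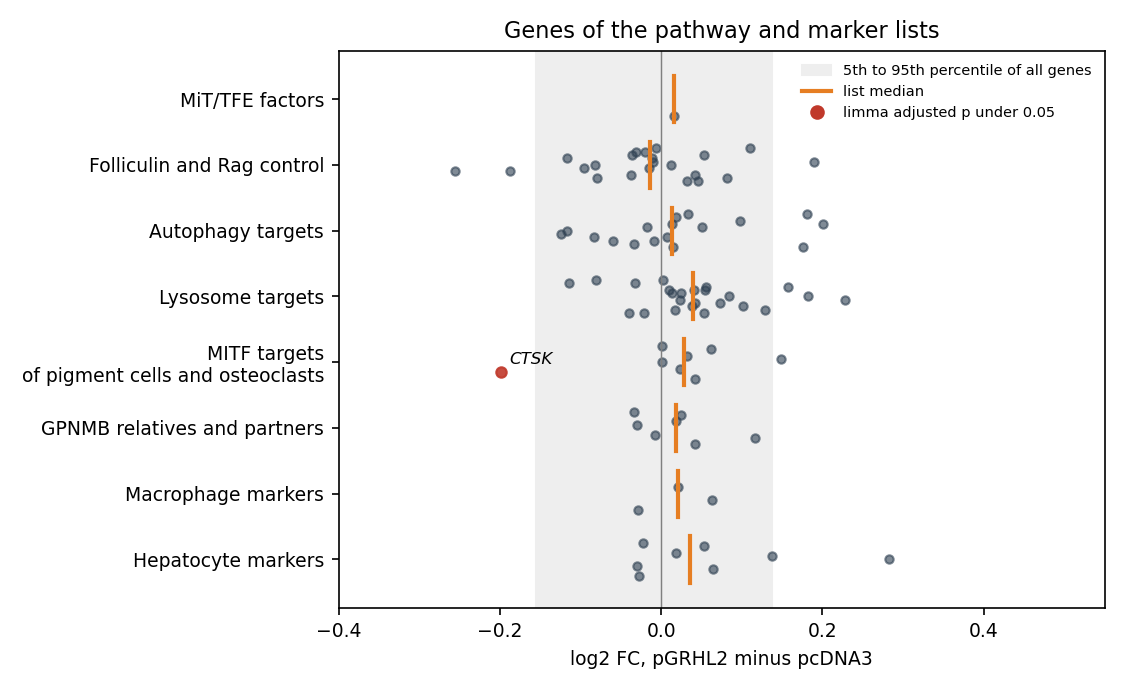
Log2 FC (x axis) of each gene in the pathway and marker lists (y axis), the 10 genes left out, with orange bars for list medians, red points for a limma adjusted p under 0.05 and a grey band from the 5th to the 95th percentile of all genes (-0.155 to 0.137). The 1 red gene is CTSK (-0.20), and the list medians lie between -0.014 and 0.039.

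Markers of cells in which GPNMB is abundant were examined beside it. Of 12 macrophage markers, 3 were analysed, with log2 FC of -0.03 ± 0.03 for CD14, 0.02 ± 0.03 for CD163 and 0.06 ± 0.18 for LYZ, the last of which had a mean level of 13.27. CD14 and CD163 had mean levels of 4.02 and -0.66. Of 6 pigment cell markers, 3 were analysed, with mean levels from 0.14 to 4.12 and log2 FC from 0.02 to 0.04. PMEL, the closest relative of GPNMB and a melanosome protein, had a log2 FC of 0.04 ± 0.08. By limma, 0 of these markers passed, and 0 had an unadjusted p under 0.05.

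The genes whose 4 pair differences lay closest to those of GPNMB, by Euclidean distance over the 4 pairs (8 libraries), were ITGA3 (distance 0.40), EFHD1 (0.46), SIRPA (0.56), SLC44A2 (0.67) and HSPB8 (0.69). Their log2 FC were 0.95 ± 0.14, 0.89 ± 0.14, 0.79 ± 0.19, 0.73 ± 0.08 and 0.78 ± 0.27. They ranked 5, 6, 7, 9 and 8 in log2 FC over the table, so that this likeness mostly describes the size of the differences. They encode an integrin subunit, a mitochondrial calcium-binding protein, a receptor of the immunoglobulin family, a choline transporter and a small heat shock protein.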

How the data were processed

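RNA-seq was performed on 8 HepG2 libraries, and groups and numbers were read from the labels. Per the study's methods, Hisat2 was used by the authors for mapping (hg38) and HTSeq for unstranded counting of exons (minimum alignment quality of 10). The authors then dropped weakly covered genes, used the rlog of DESeq2 and scaled the values to mean transcript length. The submitters' processing notes name HISAT2 2.2.1, HTSeq 0.9.1 and DESeq2 1.40.2. For HISAT2 and DESeq2 the study's methods give other versions. The deposited values, named as FPKM, were read as log2 values (3.71% below 0), although the authors' description, rlog values divided by length, does not by itself give this scale. Among 1295 genes with an SD of pair differences under 0.02, the mean level fell with log2 transcript length at a slope of -0.77. A stray character was removed from 1 value, and 0 columns belonged to other samples.

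In 17561 of 17561 genes the mean of each same-numbered pair was identical over the 4 numbers (largest spread 1.53e-13), a step the methods do not describe. Deviations of paired libraries thus mirror each other, which makes the correlation check of the pairing void, and the numbers were used as a block because the values were adjusted by them. The test was limma (lmFit, eBayes with trend; limma 3.58.1, R 4.3.3) with the replicate block, 3 residual degrees of freedom per gene, and Benjamini-Hochberg adjustment over all genes. The study describes the 4 replicates as independent. Depth was unknown, so no counting error is given.

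The members and lists were chosen with earlier results of these data known. Some list genes are not reported here and were left out of the list counts. Named were the 10 genes, and in each pathway list the genes with an adjusted p under 0.05 and the largest and lowest log2 FC among the rest, the 5 genes closest to GPNMB and GRHL2. Genes were placed with GENCODE release 44, which matched 99.9% of symbols. Among named list and marker genes, larger shares of shared exon bases were also found for LYZ (34.74%), TPP1 (13.9%), ADAM17 (11.67%), DEPDC5 (10.43%) and GABARAPL1 (8.12%). Alternatives included no block, median centring, robust eBayes, removal of the trend on level (natural spline, 5 degrees of freedom), a filter at a mean value of 5 and leaving out each replicate (both libraries of a number).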

Additional observations from a re-analysis of the deposited data

How the results depend on the processing

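GPNMB kept its direction in 9 of 9 alternatives, with log2 FC of 1.04 to 1.05, and of 0.98 to 1.10 when a replicate was left out. This direction could not turn when a replicate was left out, because all 4 pair differences were above 0. Fits without the block, with robust eBayes or with the filter on level leave the log2 FC unchanged. Nothing is therefore read from the kept direction. Among the other 9 genes, TFEB turned to -0.0089 without replicate 2 and RRAGD to -0.003 without replicate 1. Without the replicate block, limma called 4 of the 10 genes (FLCN, SQSTM1 and UVRAG added, all lower), 12 higher and 3 lower pathway genes, and 1821 higher and 1427 lower genes of the table, against 297 and 88 with it. That fit counts the removed replicate means as free, with 6 residual degrees of freedom in place of 3. With a mean value of at least 5, which 8 of the 10 genes reached, 63 genes of the table were higher, and 0 pathway genes were lower. With the replicate block and the level trend removed, 193 were higher. Leaving out a replicate gave from 79 to 156 higher and from 8 to 68 lower genes of the table, 0 higher and 0 lower pathway genes, and 1 of the 10 genes each time. OSCAR, whose log2 FC was close to 0, changed sign with pair differences centred on their median (-0.0015), with the level trend removed (-0.01), without replicate 2 (-0.0061) and without replicate 4 (-9e-05), its values without a replicate running from -0.0061 to 0.0062. ADAM17 also changed sign without replicate 2 (0.005), its values without a replicate running from -0.07 to 0.005. Of 114 values of the other named genes, 98 kept direction and call. The cause of these changes was not tested.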

Other observations

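The genes next to GPNMB on chromosome 7 were looked at after its value had been seen. Within 500 kb of it, 13 genes were in the table, with log2 FC from -0.09 to 0.04, and limma called 0 of them, 0 having an unadjusted p under 0.05. The nearest, MALSU1, a mitochondrial ribosome assembly factor 23.6 kb away, stood at -0.03 ± 0.20 (SD, n = 4 pairs) on the log2 scale. NUP42, a nuclear pore gene 35 kb away on the other side, had a log2 FC of -0.01 ± 0.25, and IGF2BP3, an RNA-binding protein gene 35.1 kb away, of 0.0086 ± 0.29. HYCC1, with a log2 FC of -0.09 ± 0.03, was lower in 4 of 4 pairs, as were 10.5% of all genes.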
